A study of Homo sapiens with 6 samples.

Results

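The genes described here are 9 listed targets of the transcription factor p53, CDKN1A, MDM2, GDF15, BBC3, BAX, ZMAT3, RRM2B, TP53I3 and SESN1, out of 35810 genes to which the deposited transcripts could be matched. They were taken by name as known p53 targets, and the list was chosen with earlier results of these data known. All 9 passed the filter on low counts, as did 13737 genes in all. RNA-seq of polyadenylated RNA was made from SPT5-AID cells, which derive from the DLD-1 colorectal adenocarcinoma line and carry an auxin-inducible degron on the elongation factor SPT5. The cells were infected with lentivirus for an shRNA against ARMC5 (shARMC5) or for a non-targeting shRNA (shNT) and selected with puromycin, 3 replicates each, and no auxin is named for these 6 libraries. Both groups therefore share the degron, the virus and the selection, and which of the study's ARMC5 shRNA constructs was used for these libraries is not given in the sources used here. ARMC5 is the adaptor through which, in this study, the CUL3 ubiquitin ligase recognises RNA polymerase II that lacks SPT5.

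p53 is activated by DNA damage, stalled transcription and other stress, binds a DNA element made of a pair of decamers, and raises genes for cell cycle arrest, apoptosis, DNA repair and metabolism. MDM2, itself a target, is the ubiquitin ligase that marks p53 for degradation, which closes a negative feedback loop. Many of these genes are also reached by other factors, so that their levels need not come from p53.

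The DNA element was searched on hg38 within 2500 bases on each side of the start of each gene's main transcript, the one with the most reads. The search scored 20 positions of the p53 consensus response element without a spacer, which reads the same on both strands. A match of at least 18 of 20 was found for 8 of the 9 genes (88.9%), against 1563 of 13737 tested genes (11.4%) and 15 of 40 other listed p53 targets (37.5%). Since genes enter lists of p53 targets partly through such elements, this is a description of the list, and p53 binding was not measured. The closest matches are printed along the gene's strand to show how near these windows come to the consensus, and none of them was tested as a site that p53 uses, with the 4 central bases of each decamer in capitals. The sequence at RRM2B is not shown.
CDKN1A, chr6:36676449-36676468, plus strand: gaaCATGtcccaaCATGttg
CDKN1A, chr6:36677331-36677350, plus strand: gaaGAAGactgggCATGtct
MDM2, chr12:68808923-68808942, plus strand: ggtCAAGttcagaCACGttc
GDF15, chr19:18385308-18385327, plus strand: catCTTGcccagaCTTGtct
BBC3, chr19:47232568-47232587, minus strand: gggTCTGcccaggCATGtcc
BAX, chr19:48955213-48955232, plus strand: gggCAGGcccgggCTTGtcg
ZMAT3, chr3:179070188-179070207, minus strand: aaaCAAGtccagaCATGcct
TP53I3, chr2:24086781-24086800, minus strand: ataCATCctcagaCATGttt

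ZMAT3 alone among the 9 matched at all 20 positions, as did 0.0582% of tested genes, in an intron 1612 bases after the start. RRM2B matched at 19 positions (0.961% of tested genes reach this), in an intron 2112 bases after its start. The other matches printed had 18. Those of CDKN1A lie 2256 and 1374 bases before the start of its main transcript, that of GDF15 841, that of BBC3 1378 and that of TP53I3 1575 bases before it. Those of BAX and MDM2 lie in an intron, 347 and 755 bases after the start, and the MDM2 match lies just before the internal start sites of that gene, which are described with the transcripts. SESN1 matched at 16 positions at most, which 99.8% of tested genes reach, and this says only that these letters are not in the window searched.

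Salmon assigned 26201112 to 40866478 reads to transcripts in the 6 libraries, and within each group every pair of libraries differed by more than counting noise (chi-square per gene from 5.23 to 21). Levels are given as counts per 1000000 reads on genes after TMM scaling (CPM), and a gene is called higher or lower in shARMC5 where edgeR's quasi-likelihood test gave an adjusted P under 0.1 over all tested genes. By this rule 7.75% of tested genes were called (1064, of which 610 were higher), and the shARMC5 and shNT ranges did not overlap for 23.4%. ARMC5 itself was at 11.9 ± 1.09 CPM in shARMC5 and 25.2 ± 1.95 CPM in shNT (SD, n = 3), a log2 fold change of -1.09 (edgeR adjusted P = 5.32e-07). The epithelial markers EPCAM, CDH1 and CDX2 were covered by at least 3355 reads per library and none of them was called. KRT8, KRT18 and KRT19 were called higher (log2 fold changes 0.18, 0.25 and 0.11) and VIL1 lower (-1.30), LGALS4 had 3 to 13 reads, and KRT20 was not matched. The markers of other cell types (VIM, PTPRC, COL1A1, COL1A2, PECAM1, CD68 and ACTA2) had 0 to 119 reads per library and 0 of the 4 tested were called. The study's methods speak of biological replicates, but neither they nor the labels say whether these were separate cultures or infections, so that P values measure the spread between these libraries only.

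Of the 9 genes, 1 was called higher in shARMC5 cells, GDF15, and 0 were called lower (11.1% called, against 7.75% of all tested genes, 4.44% higher and 3.3% lower). GDF15 was 1.29-fold higher, and the other 8 had ratios of means between 0.928 and 1.14. The median log2 fold change of the 9 genes was 0.01, against -0.00 over all tested genes, with 5 above 0 and 4 below. At an unadjusted P under 0.05 there were 2 genes, GDF15 and CDKN1A, where 18.1% of tested genes reached that level, and DESeq2, which called 7.39% of the genes it gave an adjusted P, also called 1. The shARMC5 and shNT ranges were apart for 3 of the 9 genes, where this held for 23.4% of tested genes, GDF15 and CDKN1A with shARMC5 above shNT and TP53I3 with shARMC5 below it.

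**Figure D1:**
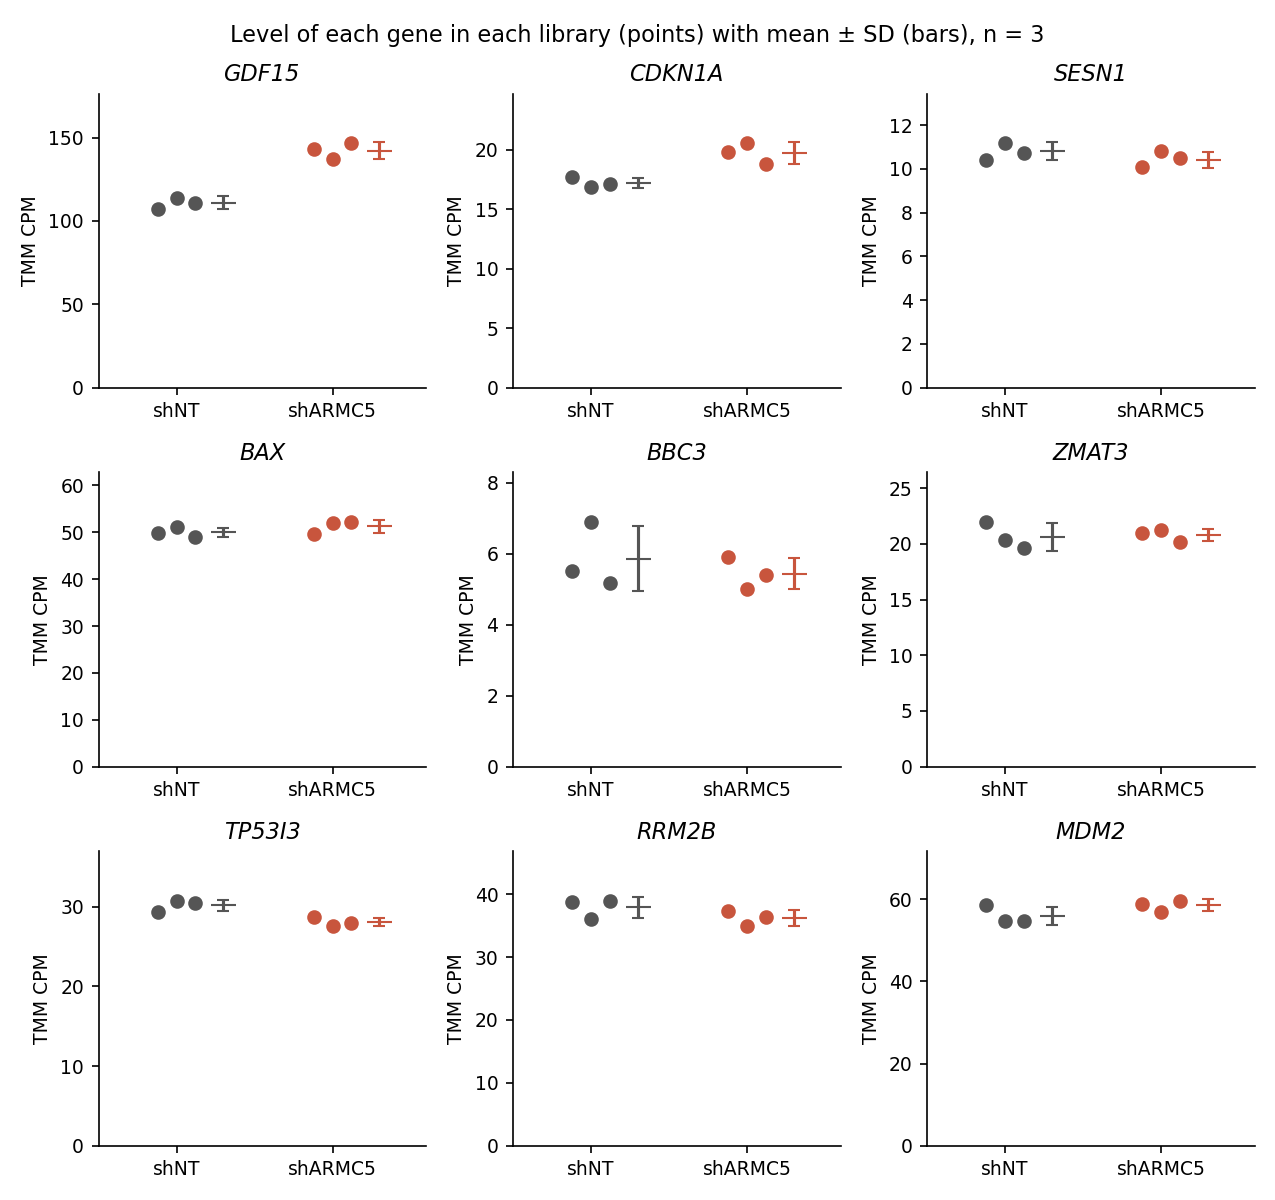
TMM-normalized CPM of each of the 9 genes in every library, with the axis starting at 0, points for the 3 libraries of each group in the order of their numbers and bars for mean ± SD (n = 3). GDF15 lies at 137 to 147 CPM in shARMC5 and 107 to 114 CPM in shNT, and the ranges overlap for 6 of the 9 genes.

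GDF15 (ENSG00000130513, chr19:18374731-18389176, plus strand) encodes a secreted factor of the TGF-beta superfamily that is raised by many kinds of cellular stress, by p53 and also by the integrated stress response. Its level was 143, 137 and 147 CPM in shARMC5 replicates 1 to 3 and 107, 114 and 111 CPM in shNT replicates 1 to 3. Every shARMC5 library was above every shNT library, and the gap between the groups was wider than the range within either. The log2 fold change was 0.37 (standard error 0.04, 95% confidence interval 0.29 to 0.44, edgeR adjusted P = 1.08e-05). A two-sided exact permutation test of the log2 levels came to P = 0.1, and a comparison of 3 libraries with 3 cannot go lower. GDF15 had 3104 to 5401 reads in each library and was called in all 14 alternative fits at this threshold, with log2 fold changes from 0.34 to 0.39. The largest adjusted P among them, 0.0102, came with an edgeR offset for transcript length.

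The 3 genes whose pattern over the 6 libraries was most like that of GDF15 were DUSP5, FSCN1 and EPHA2, out of 9331 genes with at least 10 CPM. Likeness was measured as the root mean square difference between log2 levels, each taken relative to the gene's own mean, and came to 0.0295, 0.0315 and 0.035. DUSP5 encodes a phosphatase that acts on ERK, FSCN1 an actin-bundling protein and EPHA2 a receptor tyrosine kinase. Their log2 fold changes were 0.41, 0.32 and 0.34, and being picked for likeness to a called gene, they had to differ in the same direction.

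CDKN1A (ENSG00000124762, chr6:36676460-36687337, plus strand) encodes p21, the inhibitor of cyclin-dependent kinases through which p53 halts the cell cycle. Its level was 19.8, 20.6 and 18.8 CPM in shARMC5 and 17.7, 16.9 and 17.1 CPM in shNT. All shARMC5 libraries were above all shNT libraries, which also held for 12.5% of tested genes in this direction. The log2 fold change was 0.20 (standard error 0.07, 95% confidence interval 0.06 to 0.33), and the edgeR adjusted P of 0.109 fell short of the threshold (unadjusted P = 0.00908). It rested on 473 to 814 reads per library.

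SESN1 (ENSG00000080546, chr6:108984309-109094846, minus strand) encodes a sestrin, which restrains mTORC1. Its level was 10.1, 10.8 and 10.5 CPM in shARMC5 and 10.4, 11.2 and 10.7 CPM in shNT, so that the groups overlapped. The log2 fold change was -0.05 (95% confidence interval -0.23 to 0.14, edgeR adjusted P = 0.844).

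Of the genes that act in apoptosis, BAX (ENSG00000087088, chr19:48954815-48961798, plus strand) encodes a protein that permeabilises the outer mitochondrial membrane. It was at 49.7, 52.0 and 52.3 CPM in shARMC5 and 49.8, 51.1 and 49.1 CPM in shNT. The groups overlapped, and the 95% confidence interval of the log2 fold change, -0.05 to 0.13, was among the narrowest of the 9 genes (value 0.04, edgeR adjusted P = 0.705). BBC3 (ENSG00000105327, chr19:47220822-47232766, minus strand) encodes PUMA, a BH3-only protein that acts upstream of BAX. It was at 5.91, 5.02 and 5.39 CPM in shARMC5 and 5.51, 6.91 and 5.17 CPM in shNT, where replicate 2 was the highest of the 6 libraries. With 136 to 224 reads per library it was the gene of the 9 with the fewest reads, and its interval was the widest, -0.41 to 0.18 (log2 fold change -0.11, edgeR adjusted P = 0.742). Without shNT replicate 2 the log2 fold change was 0.02.

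TP53I3 (ENSG00000115129, chr2:24077433-24085861, minus strand) encodes PIG3, an oxidoreductase whose expression goes with p53-dependent oxidative stress. It was at 28.7, 27.6 and 28.0 CPM in shARMC5 and 29.4, 30.8 and 30.5 CPM in shNT. Here all shARMC5 libraries were below all shNT libraries, as for 10.9% of tested genes, but the difference was small and not called (log2 fold change -0.11, 95% confidence interval -0.22 to 0.01, edgeR adjusted P = 0.332).

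ZMAT3 (ENSG00000172667, chr3:178960121-179072215, minus strand) encodes an RNA-binding zinc finger protein, and carries the full 20-position match. It was at 21, 21.2 and 20.2 CPM in shARMC5 and 22.0, 20.3 and 19.6 CPM in shNT. The shARMC5 values lay inside the shNT range, and the log2 fold change of 0.01 had a 95% confidence interval of -0.13 to 0.15 (edgeR adjusted P = 0.949). Its sign turned under library size scaling and when shARMC5 replicate 2 or shNT replicate 3 was left out.

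RRM2B (ENSG00000048392, chromosome 8, minus strand) encodes the p53-inducible small subunit of ribonucleotide reductase, which supplies deoxynucleotides for DNA repair and mitochondrial DNA. It was at 37.4, 34.9 and 36.3 CPM in shARMC5 and 38.7, 36.1 and 39.0 CPM in shNT. The groups overlapped in a narrow band (log2 fold change -0.07, 95% confidence interval -0.18 to 0.05, edgeR adjusted P = 0.559).

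MDM2 (ENSG00000135679, chr12:68808177-68845544, plus strand) was at 58.8, 56.8 and 59.7 CPM in shARMC5 and 58.5, 54.8 and 54.7 CPM in shNT. The groups overlapped through shNT replicate 1, and the log2 fold change was 0.06 (95% confidence interval -0.03 to 0.15, edgeR adjusted P = 0.498). Per length the difference was larger, with 24.1, 30.8 and 29.4 TPM, transcripts per 1000000 transcripts, in shARMC5 and 25.7, 23.1 and 19.1 TPM in shNT. The groups overlapped on this scale too. With an offset for transcript length the log2 fold change was 0.33, not called by edgeR (adjusted P = 0.294) and called by DESeq2 (adjusted P = 0.0832), where these fits called 1.71 and 4.9% of genes. The mean effective length of MDM2 transcripts behind this offset was 3447, 2597 and 2793 bases in shARMC5 and 3334, 3334 and 3942 bases in shNT, and rests on how salmon divided the reads among 36 transcripts. For the other 8 genes the log2 ratio of the mean lengths stayed between -0.01 and 0.12.

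Levels of different genes can be compared per length. In shNT cells GDF15 was the highest of the 9 at 160 ± 3.16 TPM (SD, n = 3), followed by BAX at 112 ± 5.08, TP53I3 at 32.2 ± 1.51 and MDM2 at 22.6 ± 3.36 TPM. RRM2B had 14.4 ± 0.753, CDKN1A 12.1 ± 0.734, BBC3 6.52 ± 0.816, SESN1 5.27 ± 0.189 and ZMAT3 4.57 ± 0.339 TPM. No gene's range over the shNT libraries overlapped that of its neighbour in this order. GDF15 thus stood above 93.2% of tested genes and BAX above 89.6%, while CDKN1A stood above 43.0% and ZMAT3 above 26.9%. In shARMC5 cells GDF15 was at 204 ± 6.57 TPM, and BAX at 113 ± 8.14 TPM. CDKN1A was at 13.6 ± 0.705 TPM in shARMC5, and on this scale its groups overlapped slightly, at 12.8 TPM in shARMC5 replicate 3 and 12.9 TPM in shNT replicate 1.

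**Figure D2:**
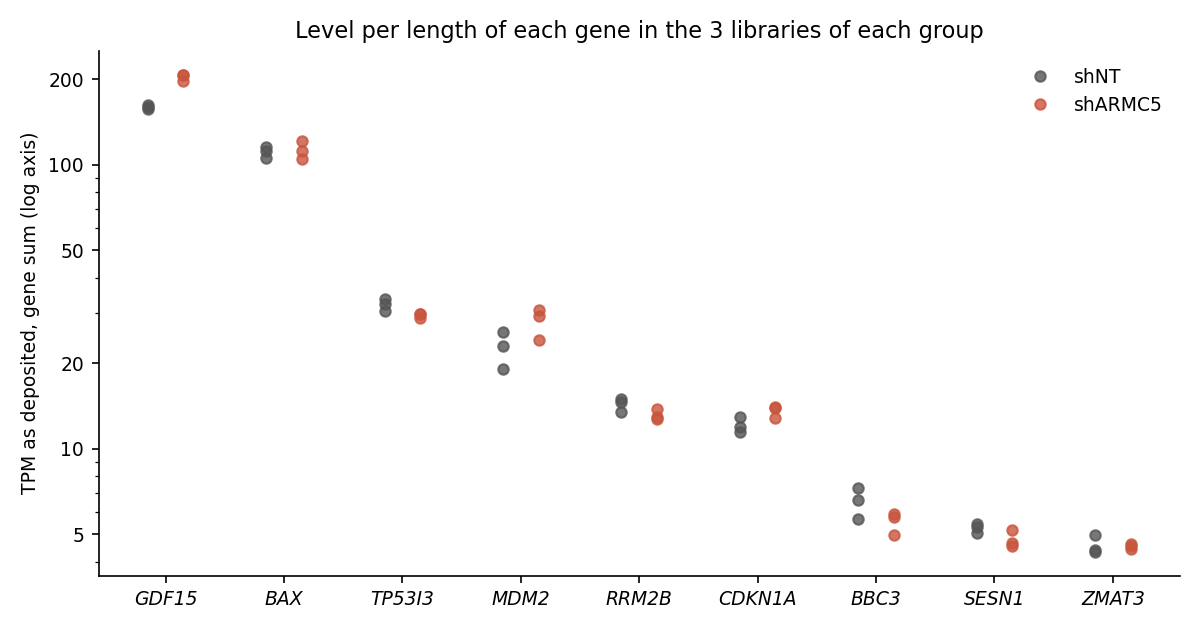
TPM as deposited, summed over each gene's transcripts, on a log axis, with 3 points per group and genes ordered by their mean in shNT. GDF15 at 157 to 163 TPM and BAX at 106 to 116 TPM in shNT lie well above the other 7 genes, and ZMAT3 has the lowest mean.

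The other genes of the p53 response were taken from lists of 43 further targets, of which 40 were tested. Of these, 7 were called higher and 1 lower (20%, against 7.75% of all tested genes), 13 had an unadjusted P under 0.05, against 18.1% of all tested genes, and DESeq2 called 6, against 7.39%. The median log2 fold change was 0.02, with 22 above 0 and 18 below, so that the called genes stood within a list spread on both sides of 0. These lists, like the 9 genes, were chosen with earlier results of these data known, and their shares are a description. RPRM, EDA2R and CDIP1 had 0 or 1 read per library and were not tested.

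Among 8 tested targets of cell cycle arrest, PLK2 and SFN were called higher and 0 lower (25%, against 7.75% of all tested genes called and 4.44% called higher). PLK2, a polo-like kinase, was at 56.3, 57.8 and 58.2 CPM in shARMC5 and 46.0, 46.8 and 45.7 CPM in shNT (log2 fold change 0.31, standard error 0.04, edgeR adjusted P = 0.000192). SFN, which encodes the 14-3-3 sigma protein that holds cells in G2, was at 336, 333 and 346 CPM in shARMC5 and 293, 304 and 298 CPM in shNT (log2 fold change 0.18, edgeR adjusted P = 0.000622). Both genes had groups that were apart and were called in all 14 alternative fits. GADD45A had a log2 fold change of 0.15 (edgeR adjusted P = 0.244), and the remaining 5 had adjusted P values of at least 0.499.

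Among 12 tested targets of cell death, 4 were called higher and 1 lower (41.7%, against 7.75% of all tested genes), and DESeq2 called 3 of the list, against 7.39% of genes. The death receptor gene FAS was at 9.27, 13.2 and 11.7 CPM in shARMC5 and 8.87, 8.57 and 7.10 CPM in shNT (log2 fold change 0.48, standard error 0.13, edgeR adjusted P = 0.0567). Its call was lost in 7 of 14 alternative fits, in which its log2 fold change lay between 0.35 and 0.54 and its adjusted P reached 0.226 without shARMC5 replicate 2. TNFRSF10B, which encodes the TRAIL receptor DR5, was at 130, 130 and 126 CPM in shARMC5 and 118, 114 and 116 CPM in shNT (log2 fold change 0.15, edgeR adjusted P = 0.00954). It was not called with either offset for transcript length, with a log2 fold change of 0.07. PERP, a membrane protein of desmosomes, had a log2 fold change of 0.13 (edgeR adjusted P = 0.00522), and the nuclease gene AEN 0.14 (edgeR adjusted P = 0.0522). APAF1, the scaffold of the apoptosome, was at 43.3, 40.2 and 41.6 CPM in shARMC5 and 46.3, 47.4 and 45.1 CPM in shNT (log2 fold change -0.15, edgeR adjusted P = 0.0848). The calls of AEN and of APAF1 were each lost in 7 of 14 alternative fits. Over these 14 fits the log2 fold change of AEN lay between 0.13 and 0.15, and that of APAF1 between -0.34 and -0.13. The value of -0.34 came from DESeq2 with a length offset (adjusted P = 0.0113), and edgeR with that offset gave -0.335 for APAF1 (adjusted P = 0.12). PMAIP1, the gene of NOXA, had a log2 fold change of 0.03 (edgeR adjusted P = 0.853).

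Of the 5 tested targets of DNA repair 0 were called (edgeR), 0 reached an unadjusted P under 0.05 and DESeq2 called 0 (over all tested genes 7.75, 18.1 and 7.39%). With 5 genes such counts of 0 do not set the list apart, and their log2 fold changes lay between -0.15 and -0.00. DDB2, which recognises damage by ultraviolet light, was at 11.8, 11.9 and 11.0 CPM in shARMC5 and 12.6, 13.4 and 12.4 CPM in shNT (log2 fold change -0.15, edgeR adjusted P = 0.365). Of 11 targets of metabolism and autophagy, 1 was called (9.09%, against 7.75% of all tested genes). This was FUCA1, a lysosomal fucosidase, which was higher, at 110, 110 and 114 CPM in shARMC5 and 92.7, 93.6 and 97.2 CPM in shNT (log2 fold change 0.24, edgeR adjusted P = 0.000465). In this list 4 genes reached an unadjusted P under 0.05, as did 18.1% of all tested genes, and apart from FUCA1 these missed the threshold, CMBL at -0.09, TIGAR at 0.12 and DRAM1 at -0.16, with edgeR adjusted P values of 0.215, 0.236 and 0.234. Of 4 targets that feed back on p53 or AKT 0 were called by edgeR or DESeq2, and RCHY1 alone had an unadjusted P under 0.05 (log2 fold change 0.13, edgeR adjusted P = 0.258). PPM1D, the phosphatase WIP1 that turns off p53, was at 21.4, 20.8 and 22.3 CPM in shARMC5 and 20.6, 21.6 and 23.8 CPM in shNT (log2 fold change -0.03, edgeR adjusted P = 0.862).

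**Figure D3:**
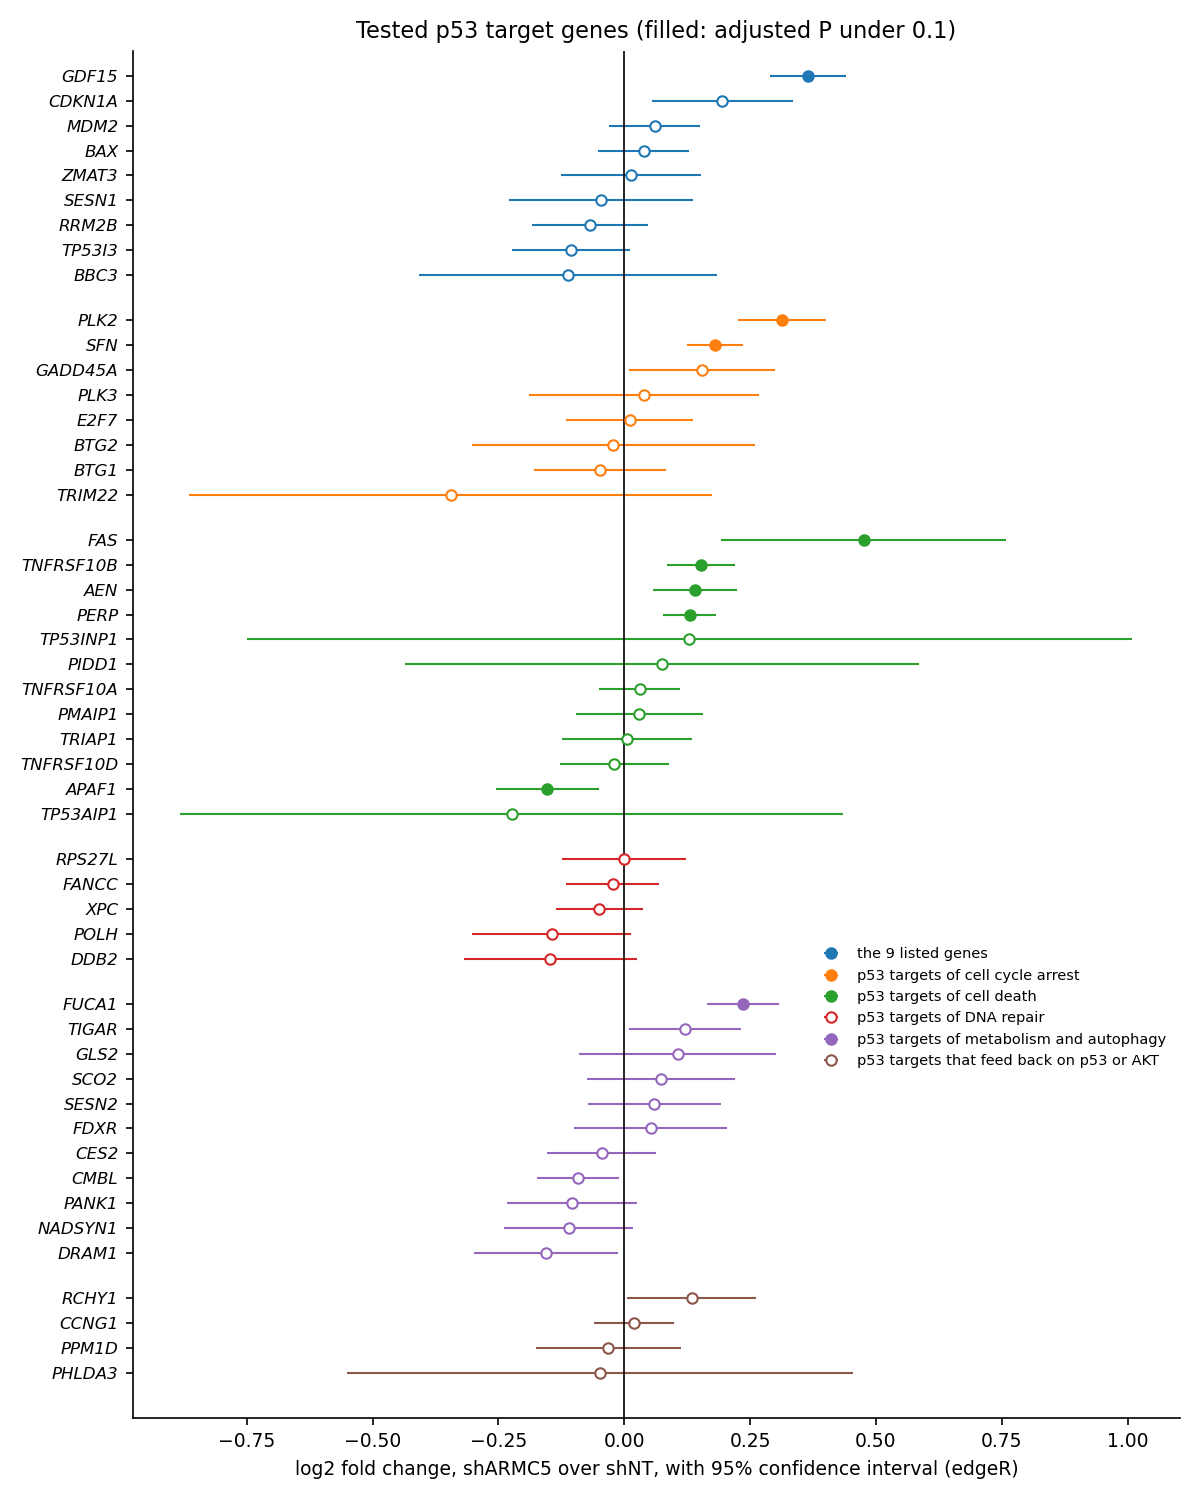
Log2 fold change of shARMC5 over shNT with its 95% confidence interval (edgeR, 3 libraries per group) for the 49 tested p53 target genes, grouped by list, with filled points for adjusted P under 0.1. GDF15 is the filled point among the 9 listed genes, and 8 of the other 40 are filled, 7 on the right of 0 and APAF1 on the left.

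Regulators of p53, 16 of them tested, were examined next. By edgeR 0 of the 16 were called (7.75% of all tested genes), 3 had an unadjusted P under 0.05 (18.1% of all), and DESeq2 called 2 (7.39% of all). Those 2 were the kinase genes ATM (edgeR log2 fold change -0.22, DESeq2 adjusted P = 0.0828, edgeR adjusted P = 0.416) and HIPK2 (edgeR log2 fold change -0.24, DESeq2 adjusted P = 0.0479, edgeR adjusted P = 0.108), both with every shARMC5 library below every shNT library. Groups were apart, all with shARMC5 lower, for 4 of the 16, namely ATM, HIPK2, MDM4 and TP53BP1. Of all tested genes 10.9% were apart in this direction and 23.4% in either. MDM4, the partner of MDM2 that masks the transactivation domain of p53, was at 22.7, 21 and 19 CPM in shARMC5 and 27.2, 24.1 and 22.8 CPM in shNT. The groups did not overlap, with shARMC5 lower, as for 10.9% of tested genes. The log2 fold change was -0.24 (standard error 0.08, edgeR adjusted P = 0.104). MDM4 was called lower in 4 of 14 alternative fits, and over all 14 its adjusted P lay between 0.0175 and 0.395. Its log2 fold change was -0.38 with either length offset, not called, and -0.16 without shNT replicate 1. USP7, which removes ubiquitin from MDM2 and p53, had a log2 fold change of -0.02 (edgeR adjusted P = 0.814). Of the 16 genes 13 had a log2 fold change below 0, with a median of -0.04. Over all tested genes the median was -0.0014 and the median absolute log2 fold change 0.08, so that the median of the list was small beside the usual size. The signs are a description and were not tested as a set. TP63 and CDKN2A had 0 to 4 reads per library and were not tested.

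Genes that p21 lowers through the DREAM repressor complex were compared beside CDKN1A. Of 15 such cell cycle genes, CDC20 was called higher (log2 fold change 0.12, edgeR adjusted P = 0.0111) and TOP2A lower (-0.09, edgeR adjusted P = 0.0672), and 13.3% were called in all, against 7.75% of all tested genes. The call of TOP2A was lost in 7 of 14 alternative fits, 5 of the 6 that left out 1 library among them, with log2 fold changes from -0.11 to -0.08 over all 14. The median log2 fold change was -0.01. CCNB1, the cyclin of mitotic entry, was at 280, 292 and 294 CPM in shARMC5 and 279, 291 and 286 CPM in shNT, and CDK1 had a log2 fold change of -0.08 (edgeR adjusted P = 0.217).

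The transcripts of the 9 genes were then compared one by one, since MDM2 and others use alternative starts. The files list 94 transcripts of these genes, 32 passed the filter, and edgeR called 0 of them, where 4 of 49809 transcripts (0.00803%) were called in all. At an unadjusted P under 0.05 there were 2, GDF15-201 and MDM2-204, where 4.93% of transcripts reached it. GDF15-201, which held 99.7% of the reads of GDF15, differed by 0.37 on the log2 scale (standard error 0.04, edgeR adjusted P = 0.182). MDM2-204, annotated as a target of nonsense-mediated decay, was given 70, 90 and 71 reads in shARMC5 and 0 reads in each shNT library. It passed the filter on low counts only through shARMC5, so its place among the 2 is not read as a test and its values are a description. These reads were 3.91, 4.0 and 4.73% of all MDM2 reads in shARMC5. CDKN1A-201 held 93.6% of the CDKN1A reads (log2 fold change 0.19, standard error 0.10, edgeR adjusted P = 1.0).

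MDM2 is transcribed from an upstream promoter and from an internal promoter in its first intron, which is known as the one that p53 drives. Starts within 500 bases of each other were joined into groups. The upstream starts, between 68808177 and 68808464, held 80.8, 74.8 and 78.3% of MDM2 reads in shARMC5 and 76.3, 74.4 and 79.3% in shNT. The internal starts, between 68809002 and 68809226, just after the matched element, held 15.3, 19.2 and 17.3% in shARMC5 and 19.3, 21.2 and 18.6% in shNT. The mean share of the internal starts was 17.3 ± 1.93% in shARMC5 and 19.7 ± 1.37% in shNT (SD, n = 3), and the groups overlapped (difference -2.45 percentage points, two-sided exact permutation test, P = 0.2). Without 1 library the difference lay between -3.41 and -1.48 percentage points. Counted by TPM in place of reads, the difference was -7.51 percentage points. Shares of reads weigh long transcripts more and do not measure how much each start is used. The main upstream transcript, MDM2-202, has 12632 bases and the main internal one, MDM2-224, has 2523. Salmon divided the reads among 6 upstream and 25 internal transcripts. For BBC3 and SESN1, which also had more than 1 start group of at least 5% of reads, 0 of 5 shares differed with an exact permutation P below 0.2. The largest share of BBC3, that of BBC3-203, was 72.1, 69.9 and 83.2% in shARMC5 and 68.5, 80.5 and 85.7% in shNT.

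**Figure D4:**
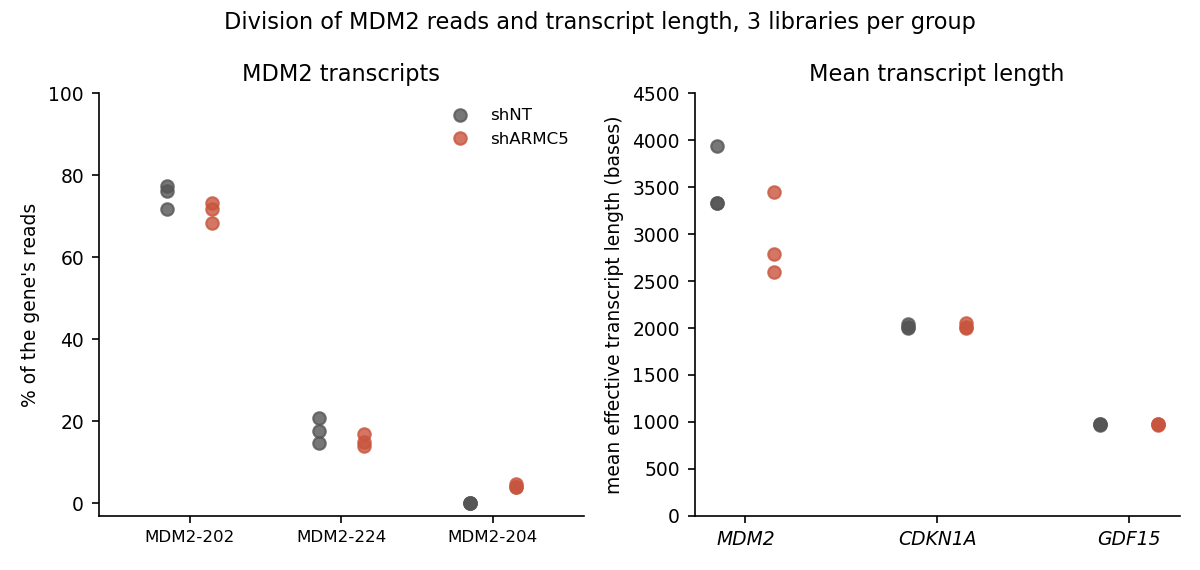
Left, percent of the reads of MDM2 that salmon gave to the transcripts named on the axis; right, mean effective transcript length in bases; each point is 1 library, 3 per group. MDM2-204 is at 0 in all shNT libraries and at 3.91 to 4.73% in shARMC5, and the mean length of MDM2 transcripts spreads from 2597 to 3942 bases.

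Reads that the exons of several annotated genes share were divided by salmon, and the kit does not mark the strand. MDM2 shares 439 exon bases with ENSG00000256664, which had 86 to 149 reads per library, and 133 bases with CPM, the antisense gene for carboxypeptidase M, which had 25 to 59 reads. TP53I3 shares 80 bases with the antisense gene FAM228B (145 to 255 reads). MDM2 had 1506 to 2242 reads and TP53I3 706 to 1090. In the annotation MDM2 also shares 785 exon bases with ENSG00000257181 and SESN1 363 bases with ENSG00000271730, genes that have no transcript among those matched here, so that reads of such stretches were not divided with them. The part of any of these overlaps in the values was not tested.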

How the data were processed

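Reads were trimmed by the authors with cutadapt 4.2 and quantified by salmon 1.9.0 with its GC correction, on build hg38. In the deposited files each transcript has an estimated count, not normalized between libraries, and a TPM value, which the authors' tool scaled to 1000000 per library. The transcript set is not given in the sources used here. Identifiers without version were matched to GENCODE 44 (165533 of 177456 transcripts), and unmatched transcripts, 2.96 to 3.04% of reads, were left out.

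Gene sums of the estimated counts were rounded, and a gene entered the test where 3 or more libraries had 10 or more counts. The test was edgeR's quasi-likelihood F test (edgeR 4.0.16 in R 4.3.3, robust, TMM factors 0.992 to 1.02), with group as its term, adjusted after Benjamini and Hochberg over 13737 genes, at a threshold of 0.1. The study's own tool, DESeq2 (1.42.0 here), was an alternative. Depth limits genes with few reads, whose intervals are wide. Single values were compared with exact permutation tests in scipy 1.17.1. Tests ran on simulated data first. Python 3.11.15 with numpy 2.4.6, pandas 2.3.3 and matplotlib 3.10.9 made the tables and plots.

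The genes, the lists and the alternatives were chosen with earlier results of these data known. Named genes are the 9 listed genes, ARMC5, MDM4, USP7, PPM1D, up to 5 called genes each way per list with at least 1 CPM, and the 3 nearest profiles to a called gene. GADD45A, PMAIP1, DDB2, CMBL, TIGAR, DRAM1, RCHY1, ATM, HIPK2, TP53BP1, CCNB1 and CDK1 were named after their values were seen. Alternatives were DESeq2's size factors, library size only, length offsets, DESeq2, other count filters, a replicate block, a threshold of 0.05 and each library left out. A gene among the regulators is not reported here.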

Additional observations from a re-analysis of the deposited data

How the results depend on the processing

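Over the 9 genes, the count called stayed at 1 (GDF15) in all fits but a pair, the replicate block (2, with CDKN1A, adjusted P = 0.077) and DESeq2 with a length offset (2, with MDM2, adjusted P = 0.0832). Same-numbered libraries did not deviate together from their group means over all genes (correlations 0.000446, 0.0148 and 0.0316). This cannot show whether they were prepared in pairs, which the labels do not say, so the replicate block was kept as an alternative. Over all genes the replicate block gave 1766 calls against 1064, the edgeR length offset 235, the DESeq2 length offset 568, a threshold of 0.05 676, and leaving out 1 library 536 to 1085. The larger direction turned with library size only, where 458 genes were called higher and 495 lower, against 610 and 454 in the main fit. For targets of cell death the count of 5 became 1 with the edgeR length offset, 3 with DESeq2, 2 with the DESeq2 length offset, 2 at a threshold of 0.05, and 2 to 5 without 1 library. For targets of metabolism and autophagy it was 1 to 2 without 1 library. For regulators of p53 the count of 0 became 2 with DESeq2, 2 with genes of at least 1 count, 5 with the replicate block, and 0 to 3 without 1 library. For genes lowered through p21 and DREAM the count of 2 became 0 with the edgeR length offset, 1 with the DESeq2 length offset, 1 at a threshold of 0.05, 3 with genes of at least 1 count, 3 with the replicate block, and 1 to 2 without 1 library. For targets of cell cycle arrest the count of 2 became 3 with the replicate block. The library with the lowest count over all genes when left out was shNT replicate 1. ARMC5 kept its direction and its call in all of these fits, with log2 fold changes of -1.15 to -1.02.

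Signs turned for 4 of the genes refitted one by one, none of which was called. ZMAT3 went to -0.0016 with library size only and ranged from -0.023 to 0.0645 without 1 library, and PPM1D went to 0.0395 and 0.0376 with the edgeR and DESeq2 length offsets and ranged from -0.0747 to 0.0275 without 1 library. BBC3 ranged from -0.1919 to 0.0242 without 1 library, above 0 without shNT replicate 2 only, and USP7 from -0.0314 to 0.0049, above 0 without shNT replicate 1 only. Without 1 library MDM2 ranged from 0.0437 to 0.0942 and BAX from 0.0234 to 0.0619. RRM2B ranged from -0.103 to -0.0407 and SESN1 from -0.0707 to -0.0148 in the same fits, all of these with their signs kept. On the TPM scale, against CPM, the log2 difference of MDM2 was 0.31 (CPM 0.06), of SESN1 -0.12 (-0.04) and of BBC3 -0.21 (-0.09). That of RRM2B was -0.12 (-0.07), of BAX 0.0103 (0.0381) and of ZMAT3 -0.0073 (0.0138). The MDM2 share of upstream starts differed by 8.25 percentage points counted by TPM, in place of 1.25 counted by reads. Counted by reads it ranged from -0.159 to 2.82 without 1 library, below 0 without shARMC5 replicate 1 only. The causes were not tested.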

Other observations

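A transcript that could not be matched by identifier but is listed beside those of RRM2B, ENST00000621845 of 3483 bases, held 83, 195 and 90 reads in shARMC5 and 53, 146 and 130 reads in shNT. It was not added to any gene, and the groups overlap. MDM2 has a similar unmatched neighbour, ENST00000428863, with 54 reads in shNT replicate 1 and 0 reads in the other 5 libraries.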
